A study of Mus musculus with 6 samples.

Results

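The change from fetal to newborn gonad that ovary and testis had in common was taken from 4 of the 6 arrays of the series. In each organ the neonatal day 1 array was set against the array at 15.5 days postcoitum (dpc), and a gene was called where its signal differed by 2-fold or more. Of 18193 genes on the arrays, 13506 were above a floor of 75.3 on 1 or more of the 4 arrays. Among these 213 were called the same way in both organs, 81 of them higher and 132 lower after birth, and 47 were called in opposite ways. The study profiled mouse gonads of both sexes at 3 ages, on 1 Affymetrix array for each sex and age. The groups used were ovaries of 1-day-old females, ovaries of females at 15.5 dpc, testes of 1-day-old males and testes of males at 15.5 dpc. All mice were C57BL/6 from a commercial breeder and untreated as far as the labels say, and the sources used here do not give the number of animals behind each RNA sample. There were no replicates, so every value below is 1 array and no fold change has an error of its own.

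At 15.5 dpc the germ cells of the mouse ovary have entered meiosis, while those of the testis lie in cords of Sertoli cells and stop dividing. By the first day after birth oocytes are being enclosed in the first follicles, and germ cells of the testis are still at rest. Both organs share stroma, vessels, blood, nearby ducts and the body-wide changes of birth, among them the end of the embryonic red cell lineage and of placental support.

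The deposited intensities were scaled so that each array had the same 2% trimmed mean, and lower values were raised to the floor, the median of all scaled signals. A ratio to an array at the floor is a bound and is written as at least N-fold. Each gene is represented by the probe set that was brightest on average over all 6 arrays of the series, the 2 adult ones included. For some genes another probe set was brighter on the 4 arrays used. In 4258 genes with a second usable probe set, the spread between the probe sets gave a robust SD of 0.27 for a single log2 ratio in ovary and 0.21 in testis. It covers probe differences within a sample, not differences between animals, and 5.80% of such pairs in ovary and 3.50% in testis differed by more than 2-fold.

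The array of the neonatal ovary stood apart from the other 3 in some of its technical controls, though not in all. Its scaling factor was 1.26, against 0.913 for the fetal ovary, 1.08 for the neonatal testis and 0.968 for the fetal testis. Its ratio of 3′ to 5′ Gapdh signal, a measure of RNA integrity, was 3.12, against 1.45 in the fetal ovary, 1.43 in the neonatal testis and 1.36 in the fetal testis. The same ratio for Actb did not set it apart, at 3.28, against 3.78 in the fetal ovary, 2.91 in the neonatal testis and 3.14 in the fetal testis. Its deposited hybridization controls had a geometric mean of 592, against 1152 in the fetal ovary, 1050 in the neonatal testis and 1018 in the fetal testis. The part of these differences in the ovary ratios was not tested, and without the array no shared call can be made. The sexes matched the labels, since the Y-linked Eif2s3y had signals of 1091 and 1065 in neonatal and fetal testis and was at the floor in both ovaries. The oocyte genes Zp3 and Nobox were at 1509 and 1556 in the neonatal ovary and at the floor in the fetal ovary and both testes. Amh, the Sertoli cell hormone, was at 5304 in neonatal and 2093 in fetal testis and at the floor in both ovaries.

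In ovary 655 genes (4.85% of those tested) were higher and 450 (3.33%) lower after birth, and in testis 417 (3.09%) were higher and 623 (4.61%) lower. The 81 genes higher in both organs were 0.6% of those tested, and the 132 lower in both were 0.977%. The first set was 12.4% of the genes higher in ovary and 19.4% of those higher in testis, and the second was 29.3% of the genes lower in ovary and 21.2% of those lower in testis. Another 38 genes (0.281%) were higher in ovary and lower in testis, and 9 (0.0666%) were lower in ovary and higher in testis. Counts in the gene lists below are to be read beside these shares. Over the 10969 genes above the floor on all 4 arrays, the ratios of the organs had a Pearson correlation of 0.33, given as a description across genes that share arrays and scaling. Of these genes 93.2% stayed within 2-fold in ovary and 93.1% in testis. The balance of higher and lower calls depended on the scaling: it was 101 against 92 after quantile normalization, 37 against 354 on the signals as deposited, 86 against 124 with equal medians and 108 against 53 with scaling on the hybridization controls.

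**Figure D1:**
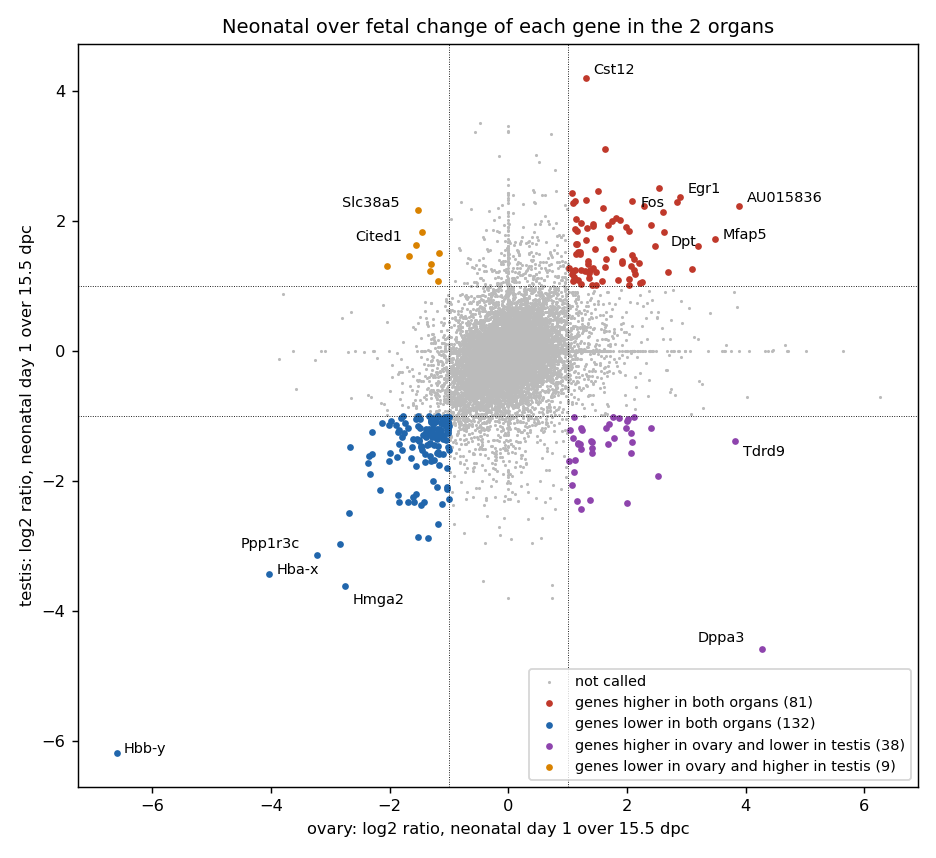
Log2 ratio of neonatal day 1 over 15.5 dpc in ovary (horizontal axis) and testis (vertical axis) for the 13506 tested genes; dotted lines mark 2-fold. The 81 genes higher in both organs lie at the upper right and the 132 lower in both at the lower left, with Hbb-y farthest out; Dppa3 lies alone at the lower right, among the 38 genes higher in ovary and lower in testis.

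An embryonic globin gene had the largest shared difference of all, and another was second among the lower genes. Hbb-y and Hba-x encode the embryonic beta-like and alpha-like globins that primitive red cells carry before the fetal liver takes over. Hbb-y was at the floor in the neonatal ovary, against 7328 in the fetal ovary, and at the floor in the neonatal testis, against 5496 in the fetal testis. It was thus at least 97.3-fold lower in ovary and at least 73.0-fold lower in testis. The other 2 probe sets of Hbb-y had log2 ratios between -6.55 and -4.28. Hba-x was at the floor in both neonatal gonads, against 1231 in the fetal ovary and 814 in the fetal testis, which is lower by at least 16.4-fold in ovary and at least 10.8-fold in testis. Hbb-bh1, also an embryonic globin, was below the floor on all 4 arrays, with a highest signal of 72.7 in the fetal ovary. In bulk RNA fewer cells of a type and less RNA per cell cannot be told apart.

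Probe sets for adult-type globins differed among themselves. The single probe set whose annotation lists several adult beta globin genes, and so names none of them, had a signal of 11072 in the neonatal ovary and 9500 in the fetal ovary. In testis it had 10506 in the neonatal and 9739 in the fetal array. Of the 3 such probe sets for adult alpha globins, 2 had log2 ratios between -0.03 and 0.32, and the remaining 1 had -2.18 in ovary and -1.36 in testis. The 3 probe sets near a ratio of 1 were very bright, with at most 286 of the 45101 probe sets brighter on any of the 4 arrays, and signals between 47.2% and 67.2% of the brightest. The probe set that was lower was dimmer, at 1378 in the neonatal and 6252 in the fetal ovary and at 1894 in the neonatal and 4873 in the fetal testis. Whether saturation compressed the ratios of the bright ones was not tested, so no level change of adult globin can be read from them. Hbb-b2, an adult beta globin with a probe set of its own, was at 209 in the neonatal and 842 in the fetal ovary, and at 185 in the neonatal and 409 in the fetal testis. That made it 4.04-fold lower in ovary and 2.21-fold lower in testis.

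Of 17 further genes of red cells above the floor, 5 were called lower in both organs and 0 higher, with 8 lower in ovary and 6 in testis. Over all genes tested 0.977% were lower in both organs, 3.33% in ovary and 4.61% in testis. The median log2 ratio of the red cell genes was -0.97 in ovary and -0.36 in testis, beside 0.00 and -0.02 over all genes tested. Slc4a1, the anion exchanger of the red cell membrane, was at 249 in the neonatal and 1779 in the fetal ovary, and at 88.6 in the neonatal and 696 in the fetal testis. Alas2, the enzyme that starts haem synthesis in red cells, was at 435 in the neonatal and 1604 in the fetal ovary, and at 385 in the neonatal and 1188 in the fetal testis. Both groups of neonatal signals lay below both groups of fetal signals. Slc25a37, the mitochondrial iron importer mitoferrin 1, was 5.11-fold and 3.08-fold lower in ovary and testis. The carbonic anhydrase gene Car2 was 2.68-fold and 5.01-fold lower, and Tal1, a transcription factor of blood precursors, 3.96-fold and 2.12-fold. Klf1 and Ermap, both red cell genes, were past 2-fold in ovary only, with log2 ratios of -1.87 and -1.99 there and -0.03 and -0.62 in testis. Gata1, at 122 or less in the neonatal gonads and 126 or less in the fetal ones, was not called. The summed signal of the list was 8738 in the neonatal ovary against 15846 in the fetal ovary, and 7120 in the neonatal testis against 10153 in the fetal testis.

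The promoters of Hbb-y, Hba-x and Alas2 are shown because their genes were among the shared lower genes of red cells. They are taken from RefSeq (GRCm38.p6), are the 250 bases before the gene's start on the gene's strand, and lie at chr7:103853208-103853457 (minus strand), chr11:32276350-32276599 (plus strand) and chrX:150547167-150547416 (plus strand). Capitals mark the CCAAT box CCAAT and the 4 forms of the GATA box on either strand. These forms are AGATAA with TGATAA, and with a last G in place of A AGATAG with TGATAG; all but AGATAA were added after the data had been seen. GATA boxes are the letters that GATA1, a factor of red cells, is known to bind. Hbb-y holds TTATCA, which is TGATAA on the other strand, 162 bases before the start, and CCAAT 83 bases before it. Hba-x holds CTATCT, which is AGATAG on the other strand, 234 bases before the start, and TGATAA 108 bases before it. Alas2 holds TTATCT, which is AGATAA on the other strand, 86 bases before the start.
Hbb-y: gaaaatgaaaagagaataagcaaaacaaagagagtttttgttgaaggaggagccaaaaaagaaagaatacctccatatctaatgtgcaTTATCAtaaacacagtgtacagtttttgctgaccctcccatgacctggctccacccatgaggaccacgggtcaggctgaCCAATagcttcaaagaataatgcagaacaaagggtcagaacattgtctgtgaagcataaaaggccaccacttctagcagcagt
Hba-x: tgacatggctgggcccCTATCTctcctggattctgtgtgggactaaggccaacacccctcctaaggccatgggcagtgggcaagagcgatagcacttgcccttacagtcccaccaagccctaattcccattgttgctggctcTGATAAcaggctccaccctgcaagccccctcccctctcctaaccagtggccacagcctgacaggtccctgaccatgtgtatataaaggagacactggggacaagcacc
Alas2: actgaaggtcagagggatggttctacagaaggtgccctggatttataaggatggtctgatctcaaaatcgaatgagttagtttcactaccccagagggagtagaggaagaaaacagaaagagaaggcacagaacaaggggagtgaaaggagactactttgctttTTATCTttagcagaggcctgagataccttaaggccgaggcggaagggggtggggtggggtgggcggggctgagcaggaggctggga

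Over the window from 250 bases before to 50 after the start, searched on both strands, 1 or more of the 4 forms was present in 8 of the 12 red cell genes with a RefSeq promoter (66.7%), against 18.9% of 10867 promoters of tested genes. Of the 8, Alas2 and Tal1 were called. The share was 27.3% among the 99 promoters of genes lower in both organs and 27.1% among the 59 of genes higher in both. For AGATAA alone it was 33.3% of the red cell genes, 7.07% of genes lower in both, 6.78% of genes higher in both and 6.53% of all. CCAAT was present in 47.5% of the promoters of genes lower in both organs and 30.5% of those of genes higher in both, against 38.5% of all. These shares are descriptions of letters and have no test.

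Hmga2 had the largest difference outside the blood genes together with Ppp1r3c. Hmga2 is a chromatin protein of embryonic growth and a known target of the let-7 microRNAs, which accumulate as embryonic tissues mature. Its signal was 355 in the neonatal and 2394 in the fetal ovary, and 101 in the neonatal and 1239 in the fetal testis, which is 6.74-fold and 12.3-fold lower. The neonatal and fetal arrays did not overlap. Of 11 genes of the let-7 and Lin28 network above the floor, 2 were called lower in both organs, Hmga2 and Plagl2, and 0 higher. The share lower in both organs over all genes tested was 0.977%. Plagl2, a zinc finger factor, was at 218 in the neonatal and 541 in the fetal ovary, and at 196 in the neonatal and 478 in the fetal testis. Igf2bp1, an RNA-binding protein of fetal tissue, had log2 ratios of -2.36 in ovary and -0.68 in testis. Lin28a, which blocks let-7 maturation, was at the floor in both ovaries and at 90.9 in the neonatal and 196 in the fetal testis. The network's median log2 ratio was -0.90 in ovary and -0.46 in testis.

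Ppp1r3c directs protein phosphatase 1 to glycogen and so favours glycogen storage. It was at 124 in the neonatal and 1167 in the fetal ovary, and at 98.8 in the neonatal and 876 in the fetal testis, 9.41-fold and 8.87-fold lower. A second, dimmer probe set had log2 ratios of -0.80 in ovary and -0.62 in testis, short of 2-fold. The relatives Ppp1r3b and Ppp1r3d were also called lower in both organs, so that 3 of 5 such subunits above the floor were called. Among all genes tested 0.977% were lower in both organs. Ppp1r3b was at the floor in the neonatal ovary against 370 in the fetal ovary, and at 174 in the neonatal against 411 in the fetal testis. Ppp1r3e and Ppp1r3f were not called, with log2 ratios between -0.63 and 0.40. This group was put together after its values had been seen.

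Other genes with a known part in the embryo are given 1 by 1, and no list of such genes was counted. Sox11, a factor of progenitor cells, was at 181 in the neonatal and 927 in the fetal ovary, and at 221 in the neonatal and 733 in the fetal testis. Hoxc5, a positional homeobox gene, was 3.22-fold lower in ovary and 5.02-fold lower in testis, and its 2 other probe sets were dim, with log2 ratios between -0.94 and 0.00. Nr2f1, a nuclear receptor of embryonic tissue, was 2.27-fold lower in ovary and 6.34-fold lower in testis. Hand2, a factor of embryonic mesenchyme, was at 567 in the neonatal and 1136 in the fetal ovary, and at 99.0 in the neonatal and 482 in the fetal testis. Flrt2, a cell-surface protein that repels or adheres migrating cells, was at 1723 in the neonatal and 4427 in the fetal ovary, and at 401 in the neonatal and 2963 in the fetal testis. Plxna2, a receptor for semaphorin guidance cues, was 2.93-fold lower in ovary and at least 4.59-fold lower in testis. Its other probe sets above the floor had log2 ratios between -0.80 and -0.77 in ovary and between -1.54 and -0.88 in testis. Asxl3, a Polycomb-associated chromatin factor, was at 216 in the neonatal and 647 in the fetal ovary, and at 85.7 in the neonatal and 432 in the fetal testis. Crabp2, a carrier of retinoic acid in the cytoplasm, was 2.88-fold lower in ovary and at least 7.27-fold lower in testis. Adamts20, a secreted metalloprotease, was at least 5.06-fold lower in ovary and 3.70-fold lower in testis. Itga8, the alpha 8 integrin of embryonic mesenchyme, was 2.76-fold and 5.17-fold lower. Nr2f1, Hand2 and Itga8 were picked after their values had been seen.

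Among imprinted growth genes 2 of 17 above the floor were called lower in both organs, Asb4 and Nnat, and 0 were higher. The share lower in both organs over all genes tested was 0.977%. Asb4, an ankyrin repeat protein expressed from the maternal copy, was at 83.3 in the neonatal and 538 in the fetal ovary, and at 165 in the neonatal and 929 in the fetal testis. Nnat, neuronatin, expressed from the paternal copy, was 4.37-fold and 2.16-fold lower. Cdkn1c, a brake on the cell cycle, was past 2-fold in testis only, with log2 ratios of -0.70 in ovary and -2.17 in testis. Mest lay at -0.98 and -1.31. Igf2, the major fetal growth factor, had log2 ratios of -0.00 and -0.70 and was not called. The list's median was -0.32 in ovary and -0.34 in testis, and the ovary value turned to 0.18 with scaling on the hybridization controls.

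Of 45 genes of mitosis and S phase, 1 was called lower in both organs and 0 higher, beside 0.977% lower and 0.6% higher among all genes tested, so the count shows nothing particular to the list. The 1 was Ccne2, cyclin E2, which drives entry into S phase. It was at 107 in the neonatal and 685 in the fetal ovary, and at 115 in the neonatal and 321 in the fetal testis. Mki67, the proliferation antigen, was at 3609 in the neonatal and 3491 in the fetal ovary, and at 3174 in the neonatal and 3852 in the fetal testis. Skp2, outside the list, which marks cell cycle inhibitors for destruction, was 3.63-fold and 2.38-fold lower. Ccnt1 and Ccnt2, the cyclins of the factor that releases paused RNA polymerase, were 3.57-fold and 2.78-fold lower in ovary and 2.33-fold and 2.77-fold lower in testis. A second probe set of Ccnt1, also above the floor, had log2 ratios of only -0.41 in ovary and -0.10 in testis. The other probe sets of Ccnt2 ranged from -1.45 to 0.06 in ovary and from -1.29 to 0.00 in testis. None of 28 genes of oxidative phosphorylation, of 21 listed genes of cytosolic ribosomal proteins and of 12 housekeeping genes was called in both organs, counts to be read beside the same low shares. Rpl12, a ribosomal protein gene outside the list, was called lower, at 314 in the neonatal and 771 in the fetal ovary and at 302 in the neonatal and 753 in the fetal testis. In the oxidative phosphorylation list none was past 2-fold in either organ.

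Zinc finger genes whose symbols begin with Zfp, Zkscan or Zscan made up 13 of the 132 shared lower genes (9.85%), against 2.35% of all genes tested, and 0 of the 81 shared higher genes. Most genes so named encode DNA-binding proteins. Zfp719 was at the floor in both neonatal gonads, against 338 in the fetal ovary and 331 in the fetal testis. Zfp101 was at 141 in the neonatal and 440 in the fetal ovary, and at 143 in the neonatal and 447 in the fetal testis. The other 11 were between 2.02-fold and 3.47-fold lower in ovary, a bound for Zkscan4. Of 318 such genes above the floor 35 were lower and 0 higher in ovary, and 30 were lower and 1 higher in testis. The 13 became 7 with scaling on the hybridization controls, 8 after quantile normalization and 41 on the signals as deposited. The group was chosen after its values had been seen, and its median of -0.43 in ovary was 0.00 with scaling on the hybridization controls, while that in testis, -0.35, stayed between -0.49 and -0.24 over the 4 other scalings.

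Of the remaining named lower genes, St6galnac3, a sialyltransferase, was 3.57-fold and 5.03-fold lower, though its other probe set above the floor had log2 ratios of -0.01 and 0.00. Rhox5, an X-linked homeobox gene of the reproductive tract, was at 122 in the neonatal and 601 in the fetal ovary, and at 308 in the neonatal and 920 in the fetal testis. Tcim, a regulator of Wnt signalling, was 3.63-fold lower in ovary and at least 4.67-fold lower in testis. Gm3515, a predicted gene, was 3.05-fold and at least 4.77-fold lower. Stk31, a germ cell gene, was called as well, at 475 in the neonatal and 1226 in the fetal ovary and at 438 in the neonatal and 1192 in the fetal testis. Clk1, a kinase of splicing factors, was at 743 in the neonatal and 2064 in the fetal ovary and at 670 in the neonatal and 1866 in the fetal testis. Kdm5a, a histone demethylase, was 2.95-fold and 2.06-fold lower. Its other probe sets above the floor had testis log2 ratios between -0.79 and 0.00, short of 2-fold. Atad2, a chromatin ATPase, was 2.19-fold and 2.31-fold lower. The list of chromatin and DNA methylation genes holds neither Kdm5a nor Atad2. In that list 0 of the 17 members were called in both organs, with medians of -0.43 in ovary and -0.04 in testis. Its ovary median was 0.05 with scaling on the hybridization controls and its testis median 0.09 with equal medians. Hif3a, a member of the hypoxia-inducible factor family, was at 674 in the neonatal and 1819 in the fetal ovary, and at 624 in the neonatal and 1527 in the fetal testis. Of the shared lower genes 4.55% and of the shared higher genes 3.70% were X-linked, against 3.41% of all genes tested. A 4-fold ratio in both organs was reached by 7 of the lower genes, Hbb-y, Hba-x, Ppp1r3c, Hmga2, Slc4a1, Asb4 and Zfp719.

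**Figure D2:**
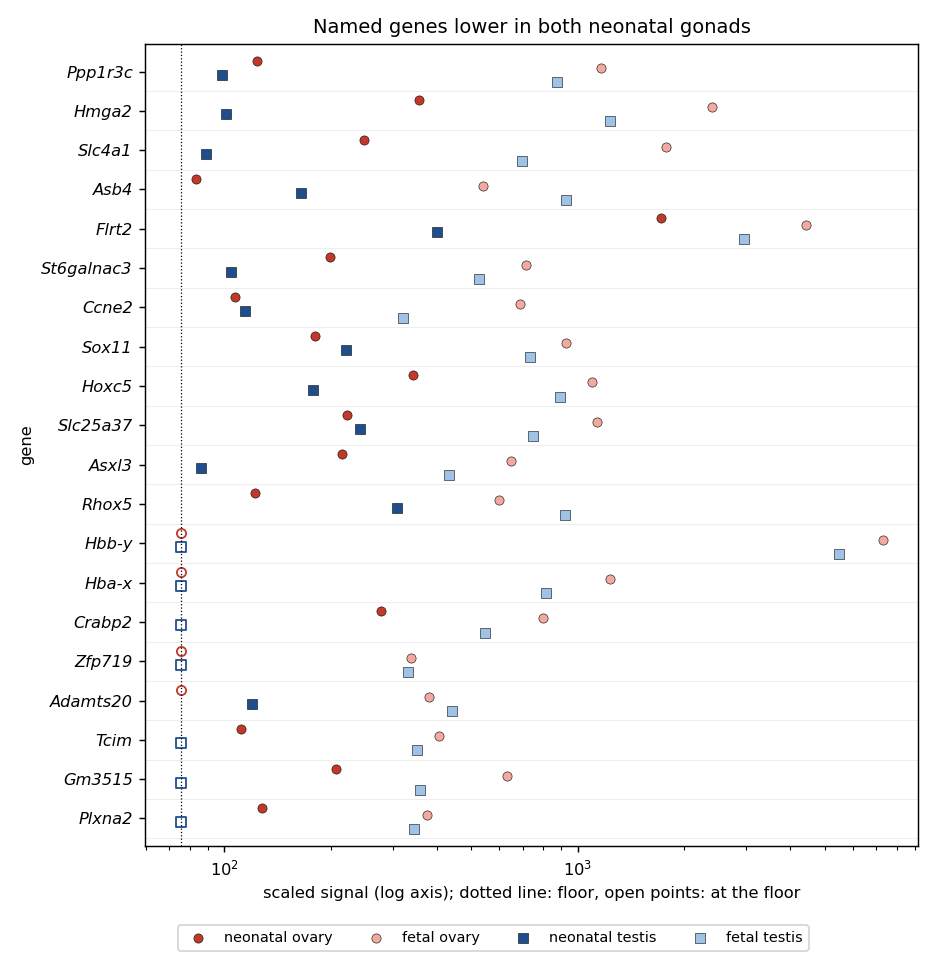
Scaled signal on each of the 4 arrays (log axis) of the 20 named genes lower in both neonatal gonads, circles for ovary and squares for testis, darker for neonatal and paler for fetal; open points are at the floor of 75.3. Both neonatal points lie left of the fetal points of the same organ in every row, and those of Hbb-y, Hba-x and Zfp719 are at the floor.

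Immediate early genes, the transcripts that a cell makes within minutes of a stimulus, were the list with the most shared higher genes. Of 25 above the floor 6 were called higher in both organs and 0 lower, with 9 higher in ovary and 9 in testis. Over all genes tested 0.6% were higher in both organs, 4.85% in ovary and 3.09% in testis. Egr1, a zinc finger factor, was at 3910 in the neonatal and 526 in the fetal ovary, and at 5630 in the neonatal and 1088 in the fetal testis, 7.43-fold and 5.18-fold higher. Fos, a subunit of the AP-1 factor, was at 875 in the neonatal and 122 in the fetal ovary, and at 618 in the neonatal and 126 in the fetal testis. For both genes each neonatal signal was above each fetal one. The other 4 were Klf4, Nr4a1, the phosphatase gene Dusp1 and the matricellular Ccn1. Their ratios lay between 2.21-fold for Nr4a1 and 3.40-fold for Klf4 in ovary, and between 2.02-fold for Dusp1 and 3.15-fold for Nr4a1 in testis. A second probe set of Klf4 had log2 ratios of 1.06 in ovary and 0.53 in testis.

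Other members of the group were high in a single organ or in neither. Egr2 was at 108 in the neonatal ovary against the floor in the fetal ovary, and at 565 in the neonatal testis against the floor in the fetal testis, at least 7.50-fold. Atf3 was at 679 in the neonatal and 103 in the fetal ovary, and at 149 in the neonatal and 131 in the fetal testis. Jun, the partner of Fos, had log2 ratios of 0.48 and -0.22, and Myc had -0.77 and -0.41. The list's median was 0.51 in ovary and 0.18 in testis, and the testis value was 0.00 with scaling on the hybridization controls. With the signals as deposited 3 rather than 6 were called. The sources used here do not give the time that dissection took, and its part in these values was not tested.

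The promoter of Fos is shown as that of a shared higher gene whose regulation is well known, from RefSeq (GRCm38.p6) at chr12:85473640-85473889 on the plus strand, again the 250 bases before the start. Capitals mark CCGCCC, the SP1 box GGGCGG read on the other strand, 74 bases before the start. GGGCGG was present in 19 of 20 immediate early promoters (95.0%), against 62.7% of all and 57.6% of those of shared higher genes. The full cyclic AMP element TGACGTCA was in 2 of the 20, Btg2 and Dusp1.
Fos: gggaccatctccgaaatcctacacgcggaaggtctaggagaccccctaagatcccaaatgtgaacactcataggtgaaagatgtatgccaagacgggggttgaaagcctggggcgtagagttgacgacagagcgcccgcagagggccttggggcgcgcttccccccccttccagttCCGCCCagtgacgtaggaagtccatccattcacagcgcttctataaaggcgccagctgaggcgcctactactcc

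Secreted proteins of connective tissue were called in both directions. Mfap5, a protein of elastic microfibrils, was at 1457 in the neonatal and 130 in the fetal ovary, and at 298 in the neonatal and 90.5 in the fetal testis. Its second probe set had log2 ratios of 3.24 in ovary and 0.84 in testis, short of 2-fold in testis. Dpt, dermatopontin, which binds collagen and decorin, was at 7560 in the neonatal and 1230 in the fetal ovary, and at 3293 in the neonatal and 922 in the fetal testis. Both neonatal signals of Dpt exceeded both fetal ones. Ltbp2, a microfibril protein related to the binders of latent TGF-beta, was at least 9.18-fold higher in ovary and 3.06-fold in testis. Efemp1, fibulin 3, was 4.19-fold and 2.49-fold higher, and Col6a4, a chain of collagen VI, at least 4.11-fold and 3.61-fold. Lama2, the laminin chain of muscle and stromal basement membranes, and the proteases Htra1, Htra3 and Adamts5 were also called higher. Has2, which makes hyaluronan, was lower, at 94.2 in the neonatal and 327 in the fetal ovary, and at the floor in the neonatal testis against 217 in the fetal testis. Col26a1 and Col8a2, both collagen chains, were lower too, with log2 ratios of -1.18 and -1.09 in ovary and -1.01 and -1.04 in testis. Of these genes only Mfap5 and Efemp1 belong to the list of matrix genes.

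Of the 40 members of that list above the floor, 2 were called higher in both organs and 0 lower. Over all genes tested the shares were 0.6% and 0.977%. The main collagens of the stroma were not called. Col1a1 had log2 ratios of 0.23 and -0.31, Col3a1 of 0.23 and 0.12, and Eln, elastin, of 1.44 and 0.93. The list's median was 0.39 in ovary and 0.10 in testis. Its sign depended on the scaling: the ovary median was -0.08 on the signals as deposited, and the testis median was between -0.10 and -0.05 under 3 of the 4 other scalings.

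Myh11, the myosin heavy chain of smooth muscle, was at 620 in the neonatal and 118 in the fetal ovary, and at 732 in the neonatal and 190 in the fetal testis. It was the 1 member called of 17 genes of smooth muscle and pericytes, of which 7 were higher in ovary and 2 in testis. For this and the next list, the shares of all genes tested were 0.6% higher in both organs, 4.85% in ovary and 3.09% in testis. Acta2 and Tagln, the commonest smooth muscle transcripts, had log2 ratios of 1.55 and 2.25 in ovary and 0.33 and 0.38 in testis. Skeletal muscle and skin genes were also present in the neonatal ovary. Of 13 above the floor 8 were higher there than in the fetal ovary and 1 was higher in testis, with a summed signal of 5905 in the neonatal and 1894 in the fetal ovary and of 1334 in the neonatal and 1359 in the fetal testis. Myh8, the perinatal myosin of skeletal muscle, was at 947 in the neonatal ovary and at the floor on the other 3 arrays. Tnni2, a fast muscle troponin, was called higher in both organs, by at least 4.09-fold in ovary and at least 2.16-fold in testis. Its other probe set above the floor had log2 ratios of 1.76 in ovary and 0.00 in testis. The part of muscle or skin in the ovary ratios of the stromal genes was not tested.

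Among genes of innate immunity, C2 and C1ra, both complement proteases, were called higher in both organs, 2 of 9 complement genes above the floor. C2 was at 2129 in the neonatal and 483 in the fetal ovary, and at 868 in the neonatal and 383 in the fetal testis. C1ra was 3.14-fold and 2.68-fold higher, and 7 of the 9 were higher in ovary and 3 in testis. Among all genes tested 0.6% were higher in both organs, 4.85% in ovary and 3.09% in testis. Tapbp, which loads peptides on class I molecules, was the 1 of 13 antigen presentation genes called, 2.24-fold and 2.13-fold higher. That list had medians of 0.56 in ovary and 0.59 in testis, and 1 was the count of interferon response genes too, Xaf1, among 24. Both counts fell to 0 on the signals as deposited and with scaling on the hybridization controls, and the hybridization controls left 1 of the 2 complement genes. Anxa1, Cd44 and Lgals3, outside these lists, were called as well, with Cd44, the receptor for hyaluronan, 2.74-fold and 2.98-fold higher. Of 25 macrophage genes 0 were called in both organs, a count to be read beside 0.6% higher and 0.977% lower among all genes tested. The macrophage list had medians of 0.28 in ovary and -0.42 in testis, and the first turned to -0.18 on the signals as deposited.

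Of 14 genes above the floor for plasma proteins that the liver secretes, 5 were called higher in both newborn gonads and 0 lower. This stands beside 0.6% higher and 0.977% lower among all genes tested. The group was put together after its values had been seen. Alb, albumin, was at 1505 in the neonatal and 539 in the fetal ovary, and at 522 in the neonatal and 225 in the fetal testis. Ttr, the carrier of thyroid hormone and retinol-binding protein, was at 1024 in the neonatal and 158 in the fetal ovary, and at 175 in the neonatal testis against the floor in the fetal testis. Ahsg, fetuin A, was at 297 and 282 in neonatal ovary and testis and at the floor in both fetal gonads. Cp, the copper-carrying ferroxidase ceruloplasmin, was at least 6.08-fold higher in ovary and 4.40-fold in testis, and Apoa1, the main protein of high-density lipoprotein, 4.22-fold and 2.78-fold. For Cp 3 of its other probe sets above the floor had ratios under 2-fold in testis. The other probe sets of Ttr had testis log2 ratios between 0.00 and 0.80, all short of 2-fold. Those of Apoa1 lay between 0.00 and 1.14 in testis. Afp, alpha-fetoprotein, the brightest of the 14, was not called, with log2 ratios of 0.75 in ovary and 1.01 in testis. The 3 fibrinogen genes Fga, Fgb and Fgg were at the floor in the fetal ovary and in both testes, and between 102 and 145 in the neonatal ovary. Ambp, Itih3 and Hpx were also at the floor in both testes. The summed signal of the group was 8435 in the neonatal and 3608 in the fetal ovary, and 4877 in the neonatal and 2547 in the fetal testis. Whether these transcripts came from gonadal cells was not tested.

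Of 18 glutathione transferases above the floor, a group also formed after its values had been seen, 4 were called higher in both organs and 0 lower. They were Gsta3, Gsta4, Gstm1 and Gstt1. Shares among all genes tested were 0.6% higher and 0.977% lower in both organs. Gstm1 was at 4458 in the neonatal and 2201 in the fetal ovary, and at 10761 in the neonatal and 4455 in the fetal testis. The number called was between 0 and 3 under the 4 other scalings. Akr1c14, an enzyme that reduces steroid hormones, was 2.84-fold higher in ovary and at least 5.49-fold higher in testis. Slc26a7, a chloride and bicarbonate exchanger, was at 1611 in the neonatal and 379 in the fetal ovary, and at 1635 in the neonatal and 331 in the fetal testis. Txnip, which binds thioredoxin and limits glucose uptake, was at 6403 in the neonatal and 1911 in the fetal ovary, and at 6560 in the neonatal and 1639 in the fetal testis. Its 2 neonatal signals were close together and above both fetal ones. A dimmer probe set of Txnip had log2 ratios of 0.69 in ovary, short of 2-fold, and 1.42 in testis. Socs2, which curbs growth hormone signalling, was 3.53-fold and 4.12-fold higher, with 1 of its other probe sets at a log2 ratio of -0.10 in testis. Igfbp6, a binder of insulin-like growth factor 2, was 3.27-fold and 3.35-fold higher.

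The gene with the largest mean ratio was AU015836, an X-linked transcript, at 1613 in the neonatal and 109 in the fetal ovary, and at 4972 in the neonatal and 1056 in the fetal testis. Cst12, a cystatin of Sertoli cells, was at 1256 in the neonatal and 509 in the fetal ovary, and at 11092 in the neonatal and 600 in the fetal testis. Its ratio was 18.5-fold in testis and 2.47-fold in ovary. Zg16, a lectin of secretory granules, was 3.09-fold and 8.63-fold higher. Tppp3, which stabilises microtubules, was 4.87-fold and 4.70-fold higher. Tcl1, a coactivator of the Akt kinase found in oocytes, was at 733 in the neonatal and 86.3 in the fetal ovary, and at 237 in the neonatal and 98.5 in the fetal testis. Tesc, a calcium-binding protein, was at least 5.52-fold and 3.06-fold higher, and Fgl2, a fibrinogen-like protease, at least 3.66-fold and 4.07-fold. Tmem242 by its brightest probe set was higher by at least 5.78-fold in ovary and at least 5.71-fold in testis, but a second had log2 ratios of -0.77 and -0.11. A 4-fold ratio in both organs was reached by 7 of the higher genes.

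**Figure D3:**
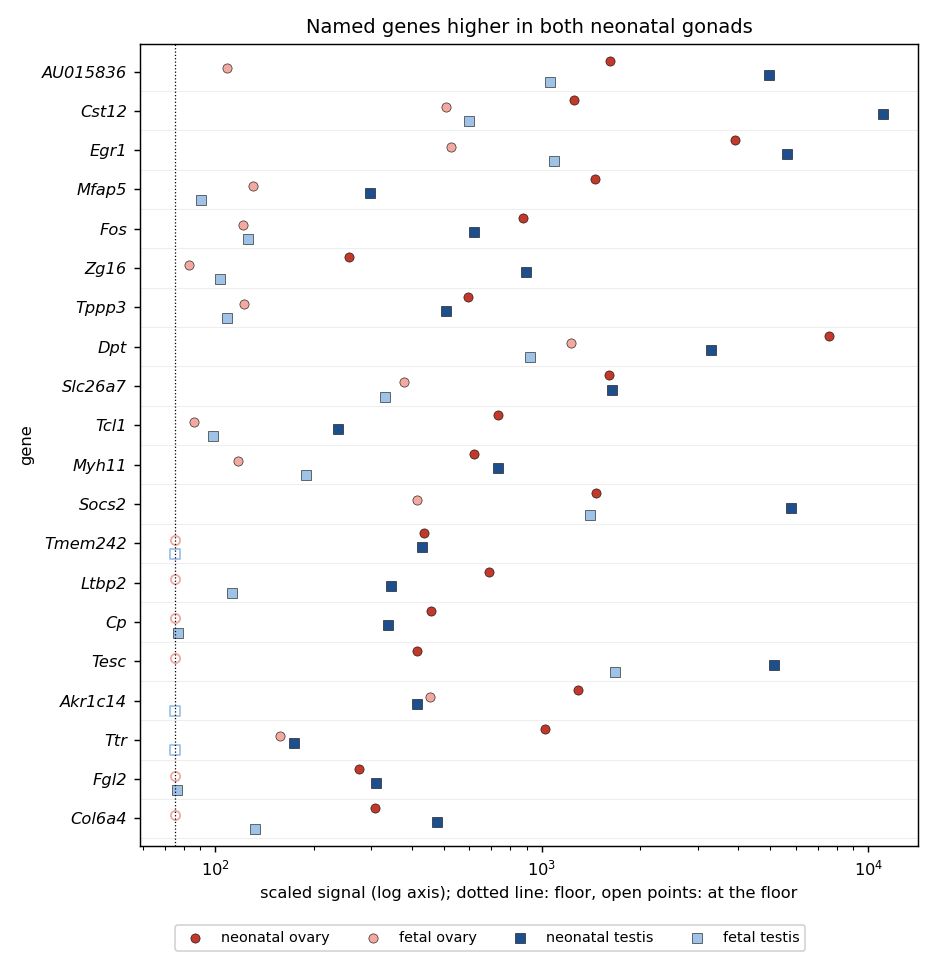
Scaled signal on each of the 4 arrays (log axis) of the 20 named genes higher in both neonatal gonads, drawn as for the lower genes. Both neonatal points lie right of the fetal points of the same organ in every row; the neonatal testis has the brightest point of Cst12 and Tesc, and the neonatal ovary that of Dpt and Mfap5.

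Agreement between probe sets was partial. Of the 81 shared higher genes 34 had other probe sets, 61 of which were above the floor, and of these 46 had the same sign in both organs and 19 passed 2-fold in both. For the 132 shared lower genes 51 had others, 76 above the floor, with 58 of the same sign and 26 past 2-fold in both. Other probe sets are given above for some genes only, so a gene without such a mention may also have a probe set short of 2-fold. A model with organ and age terms on the 4 arrays, fitted with limma over the 13506 genes, has 1 residual degree of freedom. It called 0 genes higher and 0 lower at an adjusted p of 0.05, and the smallest adjusted p was 0.34. At an unadjusted p under 0.05 it had 540 higher and 998 lower. The model reads the same 4 values as the calls by size and lends them no further weight.

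Genes that went opposite ways were led by Dppa3, an egg and primordial germ cell factor also called Stella. It was at 4911 in the neonatal and 253 in the fetal ovary, and at the floor in the neonatal testis against 1819 in the fetal testis. That is 19.4-fold higher in ovary and at least 24.2-fold lower in testis. Among genes of germ cells of both sexes 3 of 23 above the floor were opposite in this direction, beside 0.281% of all genes tested. They were Dppa3, Tdrd9 and Tdrd5. The last 2 encode Tudor domain proteins of the pathway that silences transposons. Tdrd9 was at 1066 in the neonatal ovary against the floor in the fetal ovary, and at 292 in the neonatal and 766 in the fetal testis. Tdrd5 was at 458 in the neonatal and 113 in the fetal ovary, and at 178 in the neonatal and 368 in the fetal testis. Ddx4, which marks germ cells of both sexes, had log2 ratios of -0.43 and -0.42. Morc1, a germ cell gene that also acts on transposons, was at least 4.26-fold higher in ovary and 2.64-fold lower in testis. No gene of the list was called higher in both organs, and 2 were called lower, Stk31 and Rhox5.

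Epithelial genes of ducts and of the gonad's surface were the list with the most members among the 38 genes higher in ovary and lower in testis. Of 22 above the floor 7 were in this set, beside 0.281% of all genes tested. They were Cdh1, Krt7, Krt8, Krt18, Krt19, Upk3b and Wfdc2. Cdh1, E-cadherin, was at 1518 in the neonatal and 475 in the fetal ovary, and at 243 in the neonatal and 654 in the fetal testis. Krt8, a keratin of simple epithelia, was at 4565 in the neonatal and 1976 in the fetal ovary, and at 692 in the neonatal and 1860 in the fetal testis. Its partner Krt18 was 2.15-fold higher in ovary and 3.63-fold lower in testis, and all 3 probe sets of Krt8 passed 2-fold in both organs. Wfdc2, a secreted protein of the female duct and epididymis, was at 2031 in the neonatal and 763 in the fetal ovary, and at 95.6 in the neonatal and 285 in the fetal testis. In each of these genes the neonatal ovary was the highest of the 4 arrays and the neonatal testis the lowest. The summed signal of the list was 34443 in the neonatal and 15259 in the fetal ovary, and 5703 in the neonatal and 12091 in the fetal testis. Its median was 1.00 in ovary and -0.96 in testis, and 1 gene rather than 7 was opposite in this direction on the signals as deposited. Ovgp1, a marker of the oviduct, was at 1961 in the neonatal ovary and at 75.6 or the floor on the other 3 arrays. Whether the dissected samples held different amounts of duct was not tested.

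Hox genes, which mark position along the body axis, were lower mainly in testis. Of 23 above the floor 13 were lower in testis and 0 higher, while in ovary 3 were higher and 1 lower. Over all genes tested 4.61% were lower and 3.09% higher in testis, and 4.85% were higher and 3.33% lower in ovary. Hoxb5 was at 791 in the neonatal and 296 in the fetal ovary, and at the floor in the neonatal testis against 212 in the fetal testis. Hoxb6 was 2.17-fold higher in ovary and at least 3.19-fold lower in testis. Hoxa5, past 2-fold in testis only, was at 753 in the neonatal and 1011 in the fetal ovary, and at the floor in the neonatal testis against 876 in the fetal testis. Of the 23 genes 12 were at the floor in the neonatal testis and 1 in the fetal testis, against 0 in the neonatal and 1 in the fetal ovary. The median was -1.37 in testis and -0.35 in ovary, where it turned to 0.14 with scaling on the hybridization controls.

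Further genes of the set included Lcn2, an iron-scavenging lipocalin, at 919 in the neonatal and 229 in the fetal ovary, and at 109 in the neonatal and 556 in the fetal testis. Pdzk1, a scaffold of membrane transporters, and B4galnt2, a glycosyltransferase, were at the floor in both the fetal ovary and the neonatal testis. Pdzk1 was at 431 in the neonatal ovary and 287 in the fetal testis, and B4galnt2 at 314 and 222. Stk36, a kinase of motile cilia, was 2.65-fold higher in ovary and 2.64-fold lower in testis. Nefl, a neurofilament protein, was at 1890 in the neonatal and 553 in the fetal ovary, and at the floor in the neonatal testis against 191 in the fetal testis. Vwf, the clotting factor of endothelium, and Aldoc, an aldolase, were 2.27-fold and 2.12-fold higher in ovary and 2.70-fold and 2.54-fold lower in testis.

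The opposite set of 9 genes, lower in ovary and higher in testis, held 3 X-linked genes (33.3%, against 3.41% of all tested), Cited1, Slc38a5 and Rhox13. Cited1, a transcriptional coactivator, was at the floor in the neonatal ovary against 221 in the fetal ovary, and at 1462 in the neonatal and 471 in the fetal testis. Slc38a5, an amino acid transporter, was at the floor in the neonatal ovary against 216 in the fetal ovary, and at 1799 in the neonatal and 400 in the fetal testis. Rhox13, a germ cell homeobox gene, was at the floor in the neonatal ovary against 240 in the fetal ovary, and at 207 in the neonatal testis against the floor in the fetal testis. Cited1 and Slc38a5 were brightest in the neonatal testis, and Rhox13 in the fetal ovary. Syce3, which builds the synaptonemal complex of meiotic chromosomes, was at 199 in the neonatal and 826 in the fetal ovary, and at 244 in the neonatal and 98.6 in the fetal testis. It was the only 1 of 29 genes of meiotic prophase in this set, beside 0.0666% of all genes tested. Of the 29 genes 15 were lower in ovary and 0 lower in testis, beside 3.33% and 4.61% of all genes tested. Tmem59l was 2.75-fold lower in ovary and 3.55-fold higher in testis, and Ndufb1, a complex I subunit, 2.48-fold and 2.52-fold. Slitrk5, a neuronal membrane protein, was at least 2.49-fold lower and 2.34-fold higher. Cracd, a regulator of actin, was at least 2.26-fold lower and 2.84-fold higher, but another of its probe sets had log2 ratios of 0.36 and 0.00. The last of the 9 was Kdm7a, a histone demethylase.

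**Figure D4:**
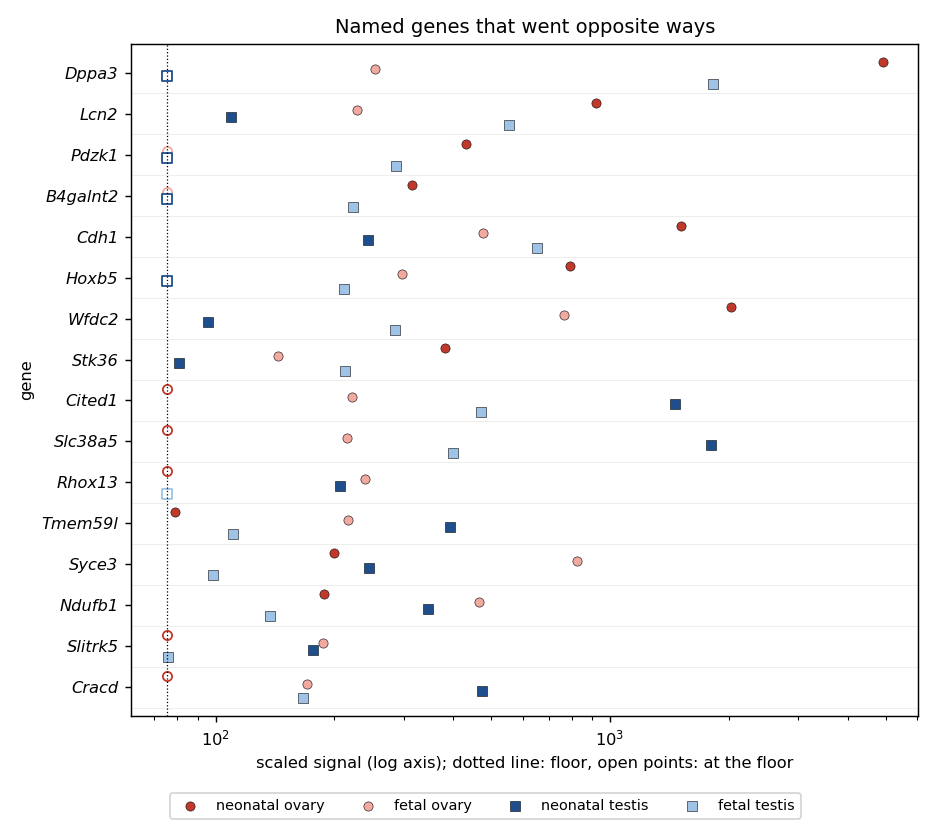
Scaled signal on each of the 4 arrays (log axis) of the 16 named genes that went opposite ways, the upper 8 higher in ovary and lower in testis and the lower 8 the reverse; open points are at the floor of 75.3. Dppa3 spans the widest range, with the neonatal ovary at 4911 and the neonatal testis at the floor.

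Lists that differed in a single organ set the frame for these shared calls. Oocyte genes were higher in ovary in 18 of 20 above the floor and in testis in 0. Sertoli genes were higher in testis in 14 of 24 and in ovary in 2, and Tesc was the 1 called in both. Cholesterol synthesis genes were lower in testis in 7 of 16 and in ovary in 0. The shares of all genes tested were 4.85% higher and 3.33% lower in ovary, and 3.09% higher and 4.61% lower in testis. Under all 5 scalings the medians of both organs were below 0 for the red cell and let-7 lists and above 0 for the antigen presentation and complement lists, and lay on opposite sides for the duct list. No test of a difference between lists was made.

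**Figure D5:**
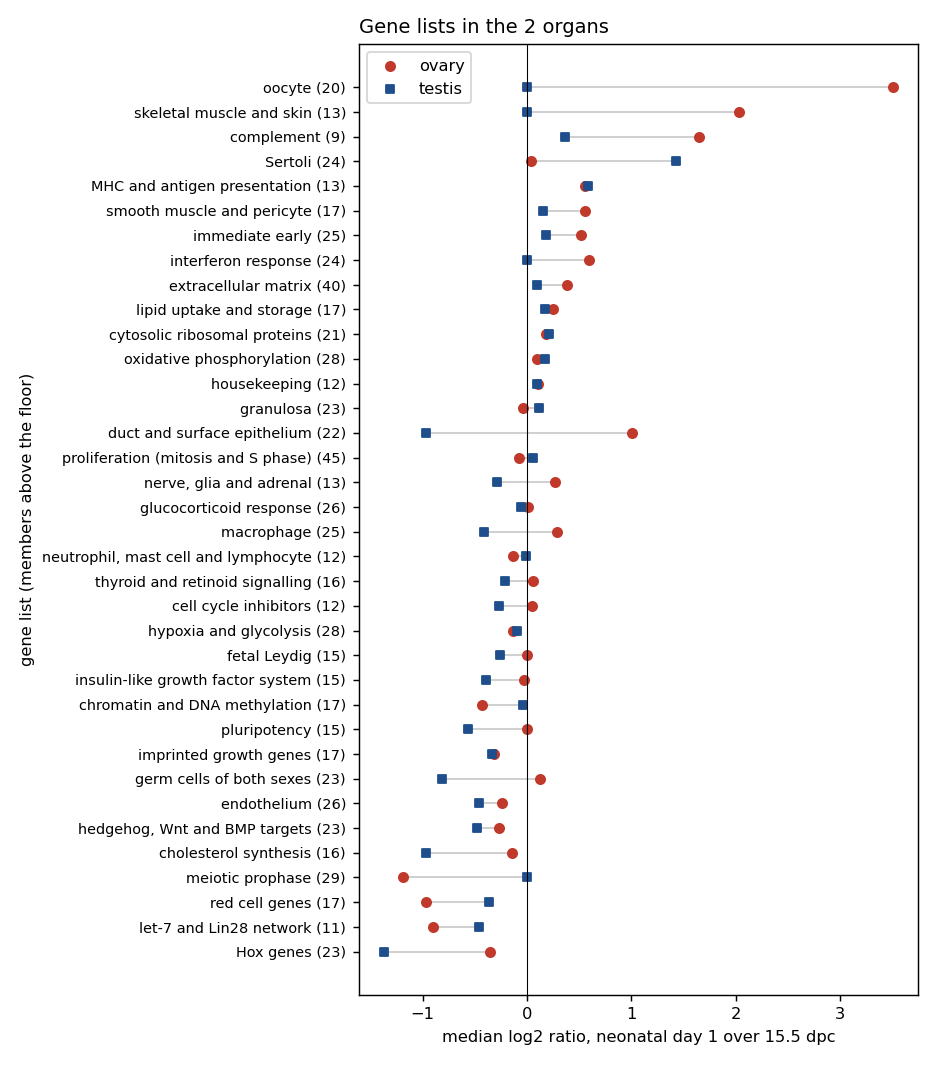
Median log2 ratio of neonatal day 1 over 15.5 dpc in ovary (circles) and testis (squares) for each gene list with 5 or more members above the floor, with their number in brackets; grey lines join the organs. Red cell and let-7 network genes lie below 0 in both organs and antigen presentation genes above 0 in both, while the duct and surface epithelium list lies at 1.00 in ovary and -0.96 in testis.

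The adult arrays, at 10 weeks, were set against the newborn ones as a description of 1 array each. Of the 132 genes lower in both newborn gonads, 81 were within 2-fold of the neonatal signal in the adult ovary, 27 were 2-fold or more above it and 24 below it. In the adult testis 79 were within 2-fold, 26 above and 27 below. Of these 132 genes 32 were at the floor in the adult ovary and 71 in the adult testis. Where signals are at or near the floor, a ratio within 2-fold does not show that a level was kept. Of the 81 higher genes 40 were within 2-fold of the neonatal signal in the adult ovary, 20 above and 21 below. In the adult testis 22 were within 2-fold, 4 above and 55 below. At the floor were 7 of the 81 in the adult ovary and 17 in the adult testis. Dpt, at 404 in the adult ovary and 89.6 in the adult testis, was below both earlier ages in each organ. Cst12 was at 1606 in the adult ovary and 5167 in the adult testis. Hbb-y and Hba-x stayed at the floor in both adult gonads.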

How the data were processed

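The authors' deposited table holds 1 linear intensity for each of 45101 probe sets on 6 arrays of 1 sample each. Per the submitters' processing notes GCOS version 1 was used in a role they do not state, and the sources used here give neither background correction nor scaling. Each array was scaled to the same 2% trimmed mean and values were raised to the pooled median, 75.3. Of the probe sets 34945 had 1 gene symbol, and 932 had several and were left out. The probe set with the highest mean signal over all 6 arrays stood for each of 18193 genes. Symbols and promoters come from RefSeq (GRCm38.p6). A gene was called at a ratio of 2 or more in each organ, with no p, since each group has 1 array. With so few arrays, their number limits the precision. limma 3.58.1 (R 4.3.3) was run as an alternative. On simulated arrays of 18193 genes with known changes in both organs and a noise SD of 0.2, the calls recovered 50 of 50 genes at 4-fold in each direction and 21 of 50 at 2-fold lower, with 0 of 17993 unchanged genes called. The simulated noise was independent between arrays, and the changed genes were placed well above the floor. Differences between animals, in RNA quality and in scaling were not simulated. The simulation therefore checks the steps of the calls and gives no rate of false calls for these arrays.

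Named were, for each shared direction, the 12 genes with the largest mean ratio above the floor on all 4 arrays and the 8 largest with an array at the floor, for each opposite pattern the 8 with the largest smaller ratio, and called members of 39 gene lists. Members and lists were chosen with earlier results of these data known, and any further gene named was picked after its values were seen. Of 846 list genes 761 were measured. Alternatives were other scalings, floors, probe set rules and ratios.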

Additional observations from a re-analysis of the deposited data

Results flagged for a closer look

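For the named genes called in opposite ways, each array of 1 organ moved against that of the other. With 1 array per group the difference between organs was not tested for any of them, nor was its cause. Values are the log2 ratio in ovary minus that in testis. Among genes of germ cells Dppa3 had 8.87, Tdrd9 5.21 and Tdrd5 3.07. Epithelial genes had 3.10 for Cdh1, 3.14 for Krt7, 2.63 for Krt8, 2.97 for Krt18, 3.47 for Krt19, 2.71 for Upk3b and 2.99 for Wfdc2, and the median over the 22 epithelial genes differed by 1.97. Hoxb5 had 2.91 and Hoxb6 2.79. The remaining genes higher in ovary had 4.45 for Pdzk1, 4.35 for Lcn2, 3.62 for B4galnt2, 3.11 for Nefl, 2.81 for Stk36, 2.61 for Vwf and 2.43 for Aldoc. Genes higher in testis had -3.69 for Slc38a5, -3.36 for Syce3, -3.29 for Tmem59l, -3.19 for Cited1, -3.13 for Rhox13, -2.68 for Cracd, -2.65 for Ndufb1 and -2.54 for Slitrk5.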

How the results depend on the processing

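Organ was the pair in every call and a term in the limma model. Beyond this pairing by organ no further pairing was possible, because each group has 1 array. Leaving out an array leaves no shared call. The 81 higher, 132 lower, 38 ovary-higher and 9 ovary-lower genes became, on the signals as deposited, 37 higher, 354 lower and 19 ovary-lower. Scaling on the hybridization controls gave 53 lower, 100 ovary-higher and 3 ovary-lower. These scalings moved the median log2 ratio of all genes by -0.46 in ovary and -0.16 in testis, and by 0.49 and -0.19, while equal medians moved it by -0.10 and 0.13. A floor at the 25th percentile gave 185 higher, 109 ovary-higher and 26 ovary-lower, and 1 at the 75th gave 29, 30, 9 and 0. With no floor and 16 added there were 138 higher, 73 ovary-higher and 17 ovary-lower. Averaging probe sets left 52 higher genes, and asking every probe set above the floor to be called left 53. A ratio of 1.5 gave 345, 619, 169 and 65, a ratio of 3 gave 21, 17, 3 and 0, and a ratio of 4 gave 7, 7, 2 and 0. A mean log2 ratio of 1 with the same sign gave 238 higher and 295 lower, and limma at an adjusted p of 0.05 gave 0 and 0, with 540 and 998 at an unadjusted p under 0.05. Keeping to genes above the floor on all 4 arrays, chosen after seeing the data, left 63, 96, 20 and 4. Of the 132 lower genes 43 remained under the hybridization controls and 89 after quantile normalization, and of the 81 higher genes 37 remained on the deposited signals. Of 56 named genes 8 lost their call under the hybridization controls, 14 when probe sets were averaged and 4 as deposited, among them Stk36, which lost it under all 3, and none under quantile normalization or equal medians. No named gene changed direction. Background is not known, so ratios of dim genes may be compressed.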
